A study of Mus musculus with 32 samples.

Results

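The choroid plexus genes described here are 9 genes known from the epithelium that makes cerebrospinal fluid: Ttr, Folr1, Kl, Aqp1, Clic6, Otx2, Enpp2, Msx1 and Lmx1a. They were chosen by symbol, and all 9 were present in each of the 4 deposited count tables, among 55291 gene symbols. The libraries came from poly(A)-selected RNA of whole brains of C57BL/6J mice, 4 per group, 32 in all. Wild type (WT) carried Dhcr7+/+ and the knockout (KO) carried Dhcr7-/-, which lacks the reductase that completes cholesterol synthesis and models Smith-Lemli-Opitz syndrome. Both genotypes were sampled on 3 embryonic days, written E12.5, E14.5 and E16.5, as well as on postnatal day 0 (PND0). The labels do not say whether the 4 libraries of a group came from separate litters, so p-values measure only the spread between these libraries.

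The choroid plexus grows from the dorsal midline of the brain ventricles, where the roof plate and the cortical hem give rise to a secretory epithelium. That epithelium rests on a vascular stroma, secretes cerebrospinal fluid and carries hormones and vitamins between blood and fluid. Several of the genes are not particular to it: Otx2 and Lmx1a also act in the midbrain and other parts of the neural tube, Msx1 in the roof plate and mesenchyme, Enpp2 in oligodendrocyte precursors and Aqp1 in blood vessels and red cells outside the plexus. In RNA from whole brain, fewer cells of a type and less RNA per cell cannot be told apart.

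Library totals ran from 13.87 M to 28.32 M counts, and every one of the 9 genes had counts in every library. The gene that is knocked out was lower in every KO library than in every WT library of its stage, with mean Dhcr7 levels of 62.46 to 91.01 counts-per-million units (CPM) in WT and 13.08 to 21.9 CPM in KO. All levels below are CPM scaled over the 32 libraries. Each stage was deposited as its own table, so a stage and any batch of that stage cannot be told apart. The gene symbols carry no position, so positions were taken from GENCODE M21 on GRCm38: Ttr is on chromosome 18 (20665280 to 20674321, plus strand), Folr1 on chromosome 7 (101858331 to 101870788, minus), Kl on chromosome 5 (150952607 to 150993817, plus), Aqp1 on chromosome 6 (55336432 to 55348555, plus) and Clic6 on chromosome 16 (92485736 to 92541243, plus). Otx2 is on chromosome 14 (48657677 to 48673819, minus), Enpp2 on chromosome 15 (54838901 to 54952892, minus), Msx1 on chromosome 5 (37820485 to 37824583, minus) and Lmx1a on chromosome 1 (167689237 to 167848741, plus). Exons of other annotated genes cover 3.98% of the exonic bases of Otx2 and 5.97% of those of Enpp2, and none of the exonic bases of the other 7 genes. Reads from such stretches could count for either gene, since the strand setting of the counting is not given in the sources used here.

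The first question was how the 9 genes ran over the WT stages. Between E12.5 and PND0 the set split: Ttr, Kl, Enpp2 and Folr1 rose, Otx2, Msx1, Lmx1a and Clic6 fell, and Aqp1 did not pass the test. The 4 genes called higher of 9 stood beside 34.5% of all genes called higher in that comparison, and the 4 called lower beside 36.4% called lower, and the counts are to be read against those shares (edgeR's quasi-likelihood test, Benjamini-Hochberg adjusted p at most 0.05, 4 libraries per stage, 17681 genes). The median log2 difference was 0.39 over the 9 genes and -0.05 over all genes tested. From E12.5 to E14.5, 4 were called higher and 2 lower, beside 27.3% and 30.5% of all genes. From E14.5 to E16.5, 2 were called higher and 2 lower, beside 29.3% and 28.2%. From E16.5 to PND0, 2 were called higher and 2 lower, beside 26.0% and 27.2%.

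**Figure D1:**
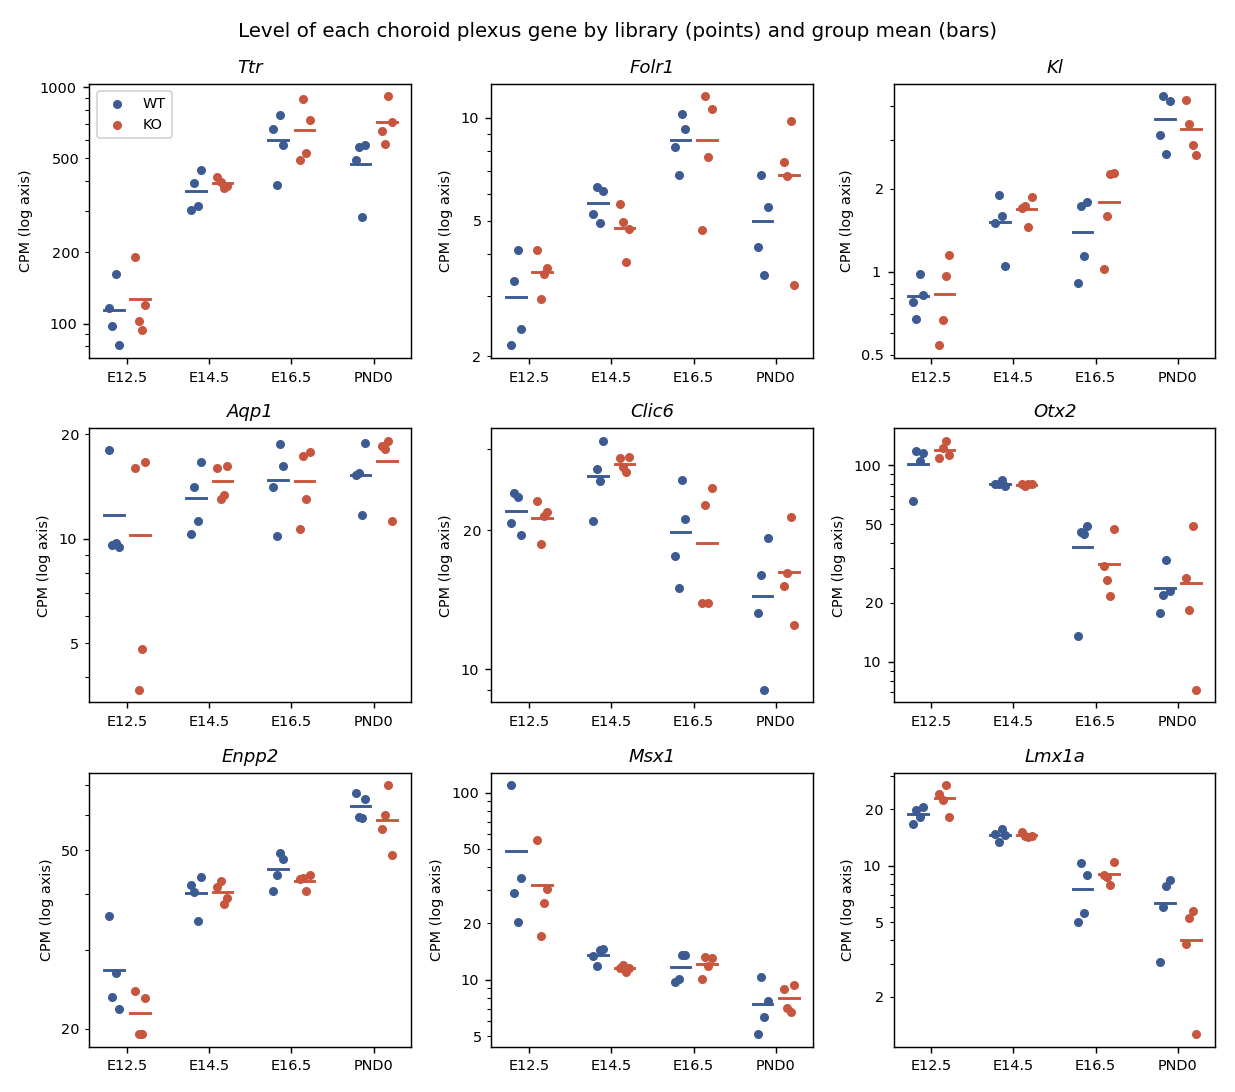
Level of each gene in every library, in CPM on a log axis with its own range per gene, over the 4 stages in WT (blue) and KO (red). Points are libraries and bars are means of 4. Ttr, Kl and Enpp2 stand higher at PND0 than at E12.5 and Otx2, Msx1 and Lmx1a lower, in both genotypes.

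Ttr encodes transthyretin, the carrier of thyroid hormone and of retinol-binding protein that the plexus secretes into the cerebrospinal fluid. Its WT level was 116.2, 97.61, 162.5 and 80.79 CPM at E12.5 and 301.4, 392.5, 315.4 and 447.9 CPM at E14.5. At E16.5 the 4 WT libraries held 667.2, 384.0, 761.9 and 571.0 CPM, and at PND0 490.2, 557.5, 281.7 and 570.8 CPM. Every E14.5 library was above every E12.5 library, whereas the later stages overlapped with each other. The first step was a log2 difference of 1.66 (SE 0.222, edgeR adjusted p = 0.000342) and the second one of 0.72 (SE 0.243, adjusted p = 0.0432). The second call was lost when any of E14.5 WT replicates 1, 2 and 3 or E16.5 WT replicates 1, 3 and 4 was left out, without the filter on low counts and with the replicate numbers as a block, with adjusted p from 0.0749 to 0.154. From E16.5 to PND0 the log2 difference was -0.38 (SE 0.281, adjusted p = 0.29).

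Folr1 encodes the folate receptor that moves folate across the plexus. It rose from 2.99 ± 0.893 CPM (SD, n = 4) at E12.5 to 5.62 ± 0.662 CPM at E14.5 and 8.63 ± 1.48 CPM at E16.5, by log2 differences of 0.90 and 0.62 (edgeR adjusted p = 0.00383 and 0.00175). At PND0 it had fallen to 4.98 ± 1.47 CPM, a log2 difference of -0.85 from E16.5 (adjusted p = 0.00335), and every PND0 library lay below every E16.5 library. Its rise from E12.5 to PND0, a log2 difference of 0.74 (adjusted p = 0.0331), was lost without E12.5 WT replicate 1, 2 or 4 or PND0 WT replicate 2 or 4 (adjusted p from 0.0508 to 0.105).

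Kl encodes Klotho, a membrane protein and co-receptor for fibroblast growth factor 23. It was the least abundant of the set, with 11 to 82 counts in each WT library. Its WT level was 0.7768, 0.6753, 0.9817 and 0.823 CPM at E12.5 and 3.131, 4.33, 2.667 and 4.167 CPM at PND0. These groups did not overlap, and the log2 difference was 2.12 (SE 0.26, edgeR adjusted p = 2.9e-05). The rise came in separate steps, of 0.87 between E12.5 and E14.5 (adjusted p = 0.0133) and of 1.29 between E16.5 and PND0 (adjusted p = 0.00144), around a step of -0.11 that did not pass the test (adjusted p = 0.755).

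Enpp2 encodes autotaxin, the secreted enzyme that makes lysophosphatidic acid. Its WT mean went from 27.0 ± 6.11 CPM (SD, n = 4) at E12.5 over 40.2 ± 3.81 and 45.4 ± 3.85 CPM to 62.6 ± 4.10 CPM at PND0. It rose by a log2 difference of 1.21 over all stages (SE 0.144, edgeR adjusted p = 2.3e-05), with called steps of 0.56 from E12.5 to E14.5 and 0.41 from E16.5 to PND0. The middle step of 0.18 missed the threshold (adjusted p = 0.0633) and passed it without E14.5 WT replicate 4 or E16.5 WT replicate 1. The list of 7 oligodendrocyte lineage genes, cells in which Enpp2 is also known, summed to 127.7 to 308.7 CPM at E12.5 and to 322.8 to 362 CPM at PND0 in WT, and 5 of its 7 genes were called higher at PND0, beside 34.5% of all genes; the part of those cells in the rise of Enpp2 was not tested.

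Aqp1 encodes the water channel of the plexus's apical membrane. Its WT mean was 11.7 ± 4.23, 13.1 ± 2.85, 14.8 ± 3.62 and 15.3 ± 2.93 CPM over the 4 stages (SD, n = 4), and none of the 4 stage comparisons passed the test (edgeR adjusted p from 0.163 to 0.978). E12.5 WT replicate 1 held 18.04 CPM against 9.482 to 9.701 CPM in the other E12.5 WT libraries. Without it Aqp1 was called higher at E14.5 (log2 difference 0.45, adjusted p = 0.0225) and at PND0 (0.68, adjusted p = 0.00283) than at E12.5.

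Clic6 encodes a chloride intracellular channel family protein. It peaked at E14.5 with 26.2 ± 4.28 CPM and reached 14.4 ± 4.34 CPM at PND0 (SD, n = 4). The fall from E12.5 to PND0 was a log2 difference of -0.61 (SE 0.199, edgeR adjusted p = 0.017), and the groups did not overlap. No single step was called, with adjusted p of 0.116, 0.0738 and 0.0646 in order of stage. The first step passed without E14.5 WT replicate 1, the second without that library or E16.5 WT replicate 3, and the third without E16.5 WT replicate 2 or PND0 WT replicate 4. DESeq2 and the fit without the low-count filter called the second and the third, and the replicate block the second.

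The 3 transcription factors of the set, Otx2, Msx1 and Lmx1a, all fell. Otx2 is a homeodomain protein needed for the forebrain and midbrain and for making and keeping the plexus epithelium, Msx1 a homeodomain protein induced by bone morphogenetic proteins in the dorsal midline, and Lmx1a a LIM homeodomain protein of the roof plate and of midbrain dopamine progenitors. Sequence before a start is shown only for these 3 transcription factors, which moved in the same direction over the WT stages. Clic6, which also fell, is not among them. RefSeq start windows (GRCm38.p6) were searched for 5 of the 9 genes, with 8 windows in all. No window of Ttr, Folr1, Clic6 or Enpp2 was searched, so the counts below do not cover these genes. The Otx2 windows and the Lmx1a window lie inside the GENCODE M21 spans of these genes, whose 5′ ends are at 48673819 and 167689237. The 250 bases before the most upstream Otx2 start searched (chr14:48667645-48667894, minus strand), before the Msx1 start (chr5:37824586-37824835, minus) and, for Lmx1a, the 249 of them outside annotated exons (chr1:167689308-167689556, plus) read 5′ to 3′ as follows.
Otx2: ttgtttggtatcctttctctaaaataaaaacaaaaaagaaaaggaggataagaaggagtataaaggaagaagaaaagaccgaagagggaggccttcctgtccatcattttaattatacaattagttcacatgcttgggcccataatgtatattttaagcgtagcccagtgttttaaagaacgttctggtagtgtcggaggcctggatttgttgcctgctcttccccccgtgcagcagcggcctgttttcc
Msx1: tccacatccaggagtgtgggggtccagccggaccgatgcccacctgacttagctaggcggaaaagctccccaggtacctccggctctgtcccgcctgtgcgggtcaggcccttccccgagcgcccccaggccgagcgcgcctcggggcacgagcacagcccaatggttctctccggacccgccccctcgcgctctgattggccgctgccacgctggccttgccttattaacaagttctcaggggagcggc
Lmx1a: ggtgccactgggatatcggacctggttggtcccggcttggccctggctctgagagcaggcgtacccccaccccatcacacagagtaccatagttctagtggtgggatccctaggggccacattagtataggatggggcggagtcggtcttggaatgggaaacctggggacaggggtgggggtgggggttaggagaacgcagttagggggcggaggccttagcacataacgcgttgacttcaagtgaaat
The letters TAATCC, to which Otx2-type homeodomains bind, were searched on both strands in the 250 bases before each start. They were in 1 of the 8 windows, and in 6.25% of the 32851 windows of all genes. The 8 windows are not separate draws, since Otx2 has several starts with windows that overlap in part. The match lies 211 bases before another Otx2 start and is given in capitals with its neighbours (chr14:48665303-48665332, minus strand). It is inside annotated exon sequence, and which gene that exon belongs to was not recorded.
Otx2 match: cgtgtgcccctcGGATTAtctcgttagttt
A match of 6 letters is a description of the sequence, and binding was not measured.

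Otx2 levels in WT were 65.43, 118.0, 105.6 and 115.8 CPM at E12.5 and 80.26, 79.89, 83.94 and 78.67 CPM at E14.5. They were 13.54, 45.53, 44.92 and 48.97 CPM at E16.5 and 17.8, 21.78, 32.97 and 22.97 CPM at PND0. Every E16.5 library was below every E14.5 library, and E16.5 WT replicate 1 stood far below the other 3 of its group. The fall over all stages was a log2 difference of -2.09 (SE 0.215, edgeR adjusted p = 7.65e-06). The step from E14.5 to E16.5 was -1.07 (SE 0.365, adjusted p = 0.0453) and lost its call without any of the 4 E14.5 WT libraries or without E16.5 WT replicate 2, 3 or 4, without the low-count filter and with the replicate block (adjusted p from 0.06 to 0.0973). Without E12.5 WT replicate 1 the step from E12.5 to E14.5 passed (log2 difference -0.49, adjusted p = 6.07e-06), and without E16.5 WT replicate 1 the step to PND0 passed (-1.01, adjusted p = 0.00022).

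Msx1 fell most in the first interval. Its 4 WT libraries held 109.6, 29.1, 20.38 and 34.78 CPM at E12.5 and 13.41, 11.87, 14.39 and 14.53 CPM at E14.5. The groups did not overlap, but 1 E12.5 library was over 3 times as high as any other. The log2 difference was -1.86 (SE 0.514, edgeR adjusted p = 0.0142), and -1.06 without that library (adjusted p = 0.000255). The call ended without the filter on low counts (adjusted p = 0.0582). The fall from E12.5 to PND0 was -2.73, and -1.94 without E12.5 WT replicate 1. The list of meninges and mesenchyme genes, a tissue in which Msx1 is also known, summed to 3247 CPM in E12.5 WT replicate 1 and to 1500 to 2237 CPM in the other E12.5 WT libraries, and its part in the Msx1 level was not tested. From E16.5 to PND0 Msx1 fell by 0.72 on the log2 scale (SE 0.203, adjusted p = 0.00819), a call that ended when all 32 libraries shared 1 fit (adjusted p = 0.156).

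Lmx1a fell from 18.8 ± 1.74 CPM (SD, n = 4) at E12.5 to 14.7 ± 0.936 CPM at E14.5, 7.48 ± 2.60 CPM at E16.5 and 6.33 ± 2.39 CPM at PND0. Its called steps were log2 differences of -0.38 (edgeR adjusted p = 0.00469; 0.223 with all 32 libraries in 1 fit) and -0.96 (adjusted p = 0.0012), and in both the groups did not overlap. The roof plate and cortical hem, the tissues that give rise to the plexus, were represented by 14 further genes. Of these, 10 were called lower and 2 higher at PND0 than at E12.5, beside 36.4% and 34.5% of all genes, with Msx2 lowest at a log2 difference of -5.56 and Bmp6 highest at 1.71, and a median of -1.40 beside -0.05 over all genes.

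A further 35 genes known from the plexus epithelium, none of them in the set of 9, were examined. At PND0 against E12.5, 15 of 35 were called higher and 9 lower, beside 34.5% and 36.4% of all genes. Tmem72, a membrane protein, moved most upward (log2 difference 5.22, edgeR adjusted p = 5.01e-06) and Wfdc2, a secreted protease inhibitor family protein, most downward (-4.19, adjusted p = 3.62e-06). From E12.5 to E14.5, 13 of 34 tested were called higher and 11 lower, beside 27.3% and 30.5% of all genes. From E14.5 to E16.5 the counts were 10 and 7 of 35 beside 29.3% and 28.2%, and from E16.5 to PND0 9 and 5 of 34 beside 26.0% and 27.2%. The ends of the first step were Tmem72 at 4.52 and the keratin Krt8 at -2.59. Those of the second were the prolactin receptor Prlr at 2.31 and the bicarbonate transporter Slc4a5 at -1.10, and those of the third the peptidase Ace at 1.54 and the potassium channel subunit Kcne2 at -1.07.

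Levels were compared between genes only per kilobase of exonic length. On that scale Ttr stood at 96.4 ± 29.7 CPM per kb (SD, n = 4) in E12.5 WT and at 401 ± 113 CPM per kb in PND0 WT, above every other gene of the set. At E12.5 the level per kb was 24.0 for Otx2, 15.7 for Msx1, 5.62 for Clic6, 5.55 for Lmx1a, 4.67 for Enpp2, 4.45 for Aqp1, 1.30 for Folr1 and 0.0873 for Kl. Among these, neighbours from Clic6 to Aqp1 differed by less than the larger SD of each pair, and the SD of Msx1 was 13.3. At PND0 the order of the levels per kb was Enpp2 10.8, Aqp1 5.83, Otx2 5.66, Clic6 3.68, Msx1 2.38, Folr1 2.17, Lmx1a 1.86 and Kl 0.383, where Aqp1 and Otx2 did not differ beyond their SD and neither did Msx1, Folr1 and Lmx1a as neighbours.

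The second question was whether the 9 genes differed between Dhcr7 KO and WT brains. None was called at any stage by edgeR, or in any of the 14 other settings per stage where the setting gave an adjusted p. DESeq2 gave no adjusted p for Folr1 and Kl at E14.5, for 7 of the 9 genes at E16.5 (all but Ttr and Enpp2) and for Kl at PND0, so it made no test of those. The share of all genes called by edgeR was, in order of stage, 0.0177%, 0.527%, 0.0462% and 1.44%, so 0 of 9 is near the background at each stage. At an unadjusted p under 0.05 edgeR gave 0, 1, 0 and 0 of the 9 genes and DESeq2 0, 1, 0 and 1. Of all genes, 4.7%, 8.73%, 11.5% and 18.0% were under that p in edgeR. The median log2 difference of the 9 was 0.02, 0.01, -0.01 and 0.13 in order of stage, against 0.00 for all genes at each stage. The genes with a positive difference numbered 5, 5, 4 and 6 of 9.

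**Figure D2:**
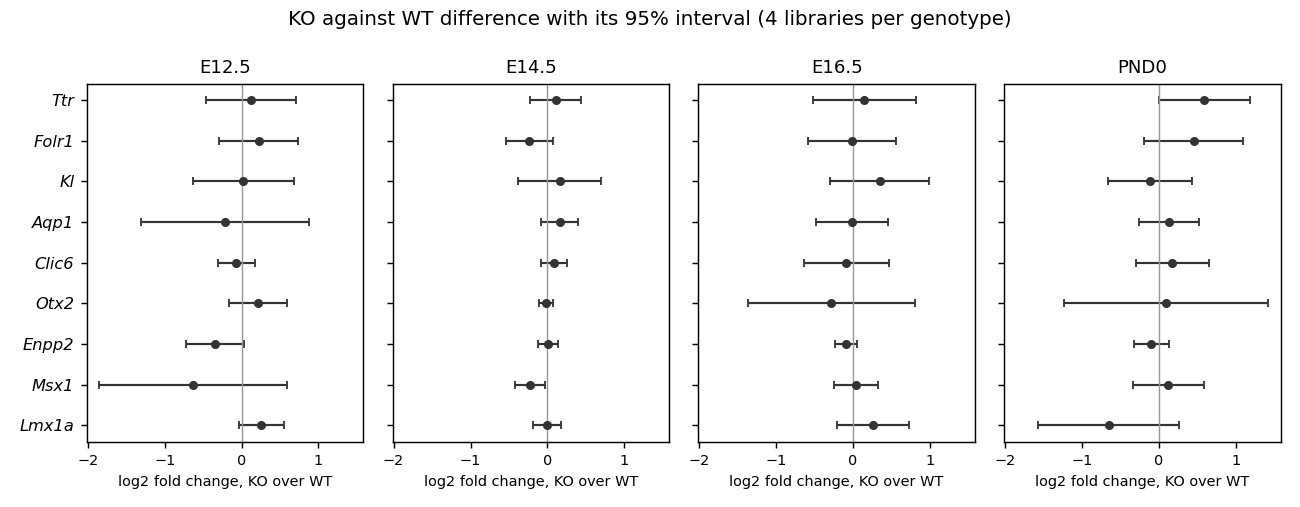
Log2 fold change of KO over WT (horizontal axis) for each gene at each stage, with its 95% interval from edgeR and 4 libraries per genotype. All intervals include 0 except that of Msx1 at E14.5, which ends at -0.03, and they are narrowest at E14.5.

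The precision of these differences changed with the stage. At E14.5 the 95% interval of the log2 difference ran from -0.11 to 0.07 for Otx2, from -0.12 to 0.13 for Enpp2, from -0.18 to 0.18 for Lmx1a and from -0.08 to 0.26 for Clic6. At E12.5 it ran from -1.31 to 0.88 for Aqp1 and from -1.85 to 0.59 for Msx1, and at PND0 from -1.24 to 1.42 for Otx2. A change of 2-fold, a log2 difference of 1, therefore lay outside the interval of every one of the 9 genes at E14.5, and inside that of some at the other 3 stages.

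Ttr had the largest positive difference, at PND0. Its levels were 490.2, 557.5, 281.7 and 570.8 CPM in WT and 655.1, 572.7, 917.8 and 715.6 CPM in KO. All 4 KO libraries were above all 4 WT libraries, by 572.7 against 570.8 CPM at the nearest pair. Ttr was the 1 gene of the 9 whose groups did not overlap at PND0, where 11.7% of all genes tested did not overlap, and with library totals or with scaling within the stage its groups overlapped (lowest KO 534.5 and highest WT 546 CPM, and 542.6 and 545.4 CPM). The log2 difference was 0.59 (SE 0.252, 95% interval -0.0017 to 1.19, edgeR adjusted p = 0.28), and over the 14 other settings it ran from 0.41 to 0.70 with adjusted p from 0.126 to 0.478. The groups of 0 of the 9 genes were apart at E12.5, E14.5 and E16.5, where 2.73%, 4.78% and 6.45% of all genes were.

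Blood genes were also high in KO libraries of that stage. The list's 10 globin and red cell genes summed to 201 to 269.2 CPM in PND0 WT and to 559.1, 235.7, 2300 and 634.5 CPM in KO, so that 3 KO libraries lay above the WT range. The library with 2300 CPM was the one in which Ttr was highest, and that with 235.7 CPM the one in which it was lowest. Hbb-bh1, an embryonic globin, was at 0 in every library of both groups, and Hbb-y, another, in every KO library. None of the 7 blood genes tested was called at PND0 (median log2 difference 1.89, smallest adjusted p 0.205, 5 at an unadjusted p under 0.05), and their part in the Ttr difference was not tested. At E12.5, E14.5 and E16.5 the blood list was lower in KO, with median log2 differences of -1.08, -0.10 and -0.75. Those of Ttr at these stages were 0.12, 0.11 and 0.14, and neither Ttr nor a blood gene was called.

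Kcne2, which followed Ttr most closely over all libraries outside the set, had 4.001, 6.398, 3.234 and 4.981 CPM in PND0 WT and 7.953, 6.803, 10.86 and 7.323 CPM in KO. These groups did not overlap either, and its log2 difference of 0.83 missed the threshold (SE 0.233, edgeR adjusted p = 0.0837). Of the 35 further plexus genes, 6 had every KO library above every WT library at PND0 and 4 had every KO library below, among them the coagulation factor F5 at a log2 difference of -0.79 (adjusted p = 0.307), beside 11.7% of all genes apart in either direction. The list had 16 of 35 positive differences.

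The transport genes gave smaller differences at PND0. Folr1 had 4.175, 6.785, 3.461 and 5.489 CPM in WT and 7.403, 6.737, 9.765 and 3.241 CPM in KO. The KO libraries held both the highest and the lowest value, and the log2 difference of 0.45 did not pass (SE 0.3, edgeR adjusted p = 0.459). Aqp1, Clic6, Kl and Enpp2 had log2 differences of 0.13, 0.18, -0.12 and -0.10 there, with adjusted p from 0.694 to 0.865. At E12.5 Enpp2 had a difference of -0.35 (SE 0.167, 95% interval -0.72 to 0.03, adjusted p = 0.875).

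Aqp1 at E12.5 had 18.04, 9.577, 9.701 and 9.482 CPM in WT and 15.99, 3.673, 4.815 and 16.64 CPM in KO. Its KO libraries fell into a high and a low pair, and the log2 difference was -0.21 (SE 0.485, edgeR adjusted p = 0.955). The list of 10 meninges and mesenchyme genes summed to 2472, 716.3, 786.9 and 2801 CPM in those KO libraries and was highest among the WT libraries in replicate 1, at 3247 CPM. The list was thus high in the libraries where Aqp1 was high, and its part in the Aqp1 level was not tested.

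Among the transcription factors, Lmx1a at PND0 had 3.073, 6.01, 7.831 and 8.386 CPM in WT and 3.851, 5.284, 5.744 and 1.261 CPM in KO. The groups overlapped, and KO replicate 4 was lowest with 21 counts. The log2 difference was -0.65 (SE 0.418, 95% interval -1.57 to 0.27, edgeR adjusted p = 0.455). Otx2 in the same KO libraries spread over 26.61, 18.3, 49.0 and 7.203 CPM, 6.8 times from lowest to highest. Its log2 difference was 0.09 (SE 0.553, adjusted p = 0.961). Msx1 at E14.5 had 13.41, 11.87, 14.39 and 14.53 CPM in WT and 11.62, 12.05, 11.06 and 11.5 CPM in KO, where 1 KO library exceeded the lowest WT library, and its log2 difference of -0.22 (SE 0.0976, unadjusted p = 0.0274) had an adjusted p of 0.496. At E12.5 the Msx1 difference of -0.63 (adjusted p = 0.896) turned to 0.17 without E12.5 WT replicate 1.

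Whether the KO difference changed from stage to stage was tested in 1 fit over the 32 libraries. None of the 9 genes passed (edgeR, 19541 genes, 0.0256% called; 0 of 9 at an unadjusted p under 0.05). DESeq2 called 0 of 9 as well, with 1 of 9 at an unadjusted p under 0.05. The smallest p was that of Lmx1a (unadjusted p = 0.0745, adjusted p = 0.415), and those of Ttr and Otx2 were 0.787 and 0.921 after adjustment.

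Of the 35 further plexus genes, 0 of 31, 0 of 35 and 0 of 34 tested were called in KO at E12.5, E14.5 and E16.5 by edgeR, with 6, 0 and 1 at an unadjusted p under 0.05, beside 4.7%, 8.73% and 11.5% of all genes. At PND0 1 of 35 was called, Igfbp2, which binds insulin-like growth factors and is also made by other cells, and 9 had an unadjusted p under 0.05, beside 18.0% of all genes. Igfbp2 was higher in KO by a log2 difference of 0.45 (SE 0.0982, edgeR adjusted p = 0.034). The median log2 difference of the list was -0.245 at E12.5, beside 0.003 over all genes. There 10 of 31 were positive, and the 6 under that unadjusted p were all lower in KO. A lower median at E12.5 was not particular to the plexus list. It was -1.08 for blood and -0.385 for meninges and mesenchyme, each with 0 of 10 positive. The multiciliated and midbrain floor plate lists had medians above 0, at 0.197 and 0.153. At E14.5, E16.5 and PND0 the median of the plexus list was 0.016, -0.003 and -0.02. Lists for the roof plate, multiciliated cells, meninges, blood, endothelium, eye pigment epithelium and midbrain floor plate had no gene called at any stage, and the oligodendrocyte list had 1, Olig1, lower in KO at E14.5 (log2 difference -0.45, adjusted p = 0.0155).

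The third question was how the genes varied between libraries of 1 group. The coefficient of variation (CV, the SD as a percent of the mean over 4 libraries) had a median over the 9 genes of 24.5% in E16.5 WT, 28.6% in E16.5 KO, 28.1% in PND0 WT and 22.0% in PND0 KO. Over every gene that averaged 1 CPM or more the medians were 9.82%, 7.65%, 12.3% and 13.0% in those groups. The set was nearer to all genes at E14.5, with 11.8% against 6.51% in WT and 4.74% against 6.80% in KO. At E12.5 it was 24.2% against 11.3% in WT and 16.03% against 15.97% in KO. Kl is among the 9 there, although its mean was under the 1 CPM asked of all genes. Within the set the lowest CV was that of Otx2 in E14.5 KO at 0.95%, and the highest were those of Msx1 in E12.5 WT at 85.0% and of Otx2 in PND0 KO at 70.0%.

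**Figure D3:**
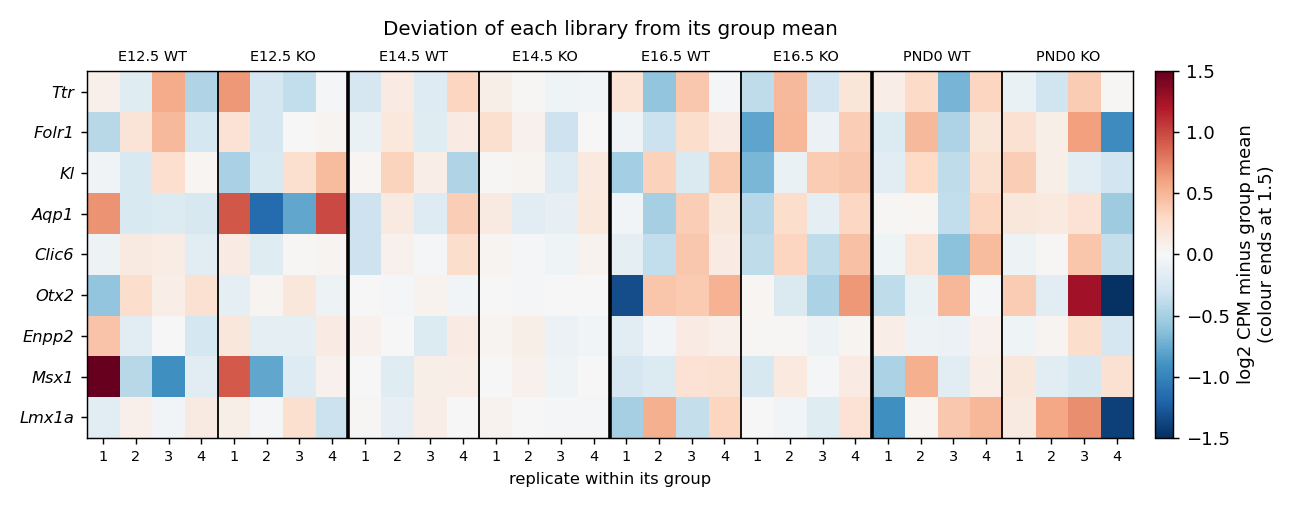
Deviation of each library from the mean of its own group, as log2 CPM in colour (red above, blue below, colours end at 1.5), for the 9 genes in rows and the 32 libraries in columns by stage, genotype and replicate. Ttr, Folr1, Aqp1 and Clic6 share their colours in many libraries, PND0 WT replicate 3 being low in all 4, while Otx2 and Lmx1a share theirs in others.

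Single libraries stood high or low for several genes at once. PND0 KO replicate 3 was the highest of its group for 7 of the 9 genes and PND0 KO replicate 4 the lowest for 7. PND0 WT replicate 3 was the lowest for 6, among them Ttr, Folr1, Aqp1 and Clic6, and the highest for Otx2. E16.5 KO replicate 4 was the highest for 6, and E14.5 KO replicate 3 the lowest for 7, at a stage where libraries differed little.

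The relation of the other 8 genes to Ttr was measured on log2 CPM after subtraction of each group's mean, over 32 libraries. Clic6 followed Ttr most closely, with Pearson's r of 0.75 and Spearman's rho of 0.736 (two-sided permutation within groups, Benjamini-Hochberg adjusted over 8 relations, p = 0.00064 and 0.00112). Folr1 had r = 0.624 and rho = 0.694 (permutation, adjusted p = 0.002 and 0.00112). Aqp1 had r = 0.592 and rho = 0.65 (permutation, adjusted p = 0.00469 and 0.00272). These 3 relations also passed in each of the 34 other settings run, among them the omission of each library. Enpp2 had r = 0.456 and rho = 0.489 (permutation, adjusted p = 0.049 and 0.0251), and its r lost the call in 21 of the 34 settings, each of which left out 1 library, with r from 0.395 to 0.471.

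The remaining 4 genes did not pass. Msx1 had r = 0.258 and rho = 0.344 (permutation, adjusted p = 0.461 and 0.18), and r rose to 0.49 without E12.5 WT replicate 3 (adjusted p = 0.0268). Kl had r = -0.0801 and rho = -0.0927 (adjusted p = 0.724 and 0.679), Otx2 r = -0.0997 and rho = -0.243 (adjusted p = 0.715 and 0.288) and Lmx1a r = -0.196 and rho = -0.299 (adjusted p = 0.461 and 0.2). Without the 2 libraries farthest from the median in Ttr, PND0 WT replicate 3 and E12.5 KO replicate 1, r was 0.727 for Clic6, 0.602 for Folr1, 0.517 for Aqp1, 0.412 for Enpp2, 0.125 for Msx1, -0.0827 for Kl, -0.0184 for Otx2 and -0.17 for Lmx1a.

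Within each stage, over 8 libraries, r with Ttr kept 1 sign for the 4 leading genes. It was 0.614, 0.884, 0.853 and 0.838 for Clic6 in order of stage. For Folr1 it was 0.62, 0.68, 0.817 and 0.508, for Aqp1 0.547, 0.885, 0.906 and 0.499, and for Enpp2 0.584, 0.554, 0.303 and 0.391. For Lmx1a it was negative at each stage, from -0.528 to -0.0814, and for Otx2 it was -0.373, -0.654, -0.13 and 0.0161.

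**Figure D4:**
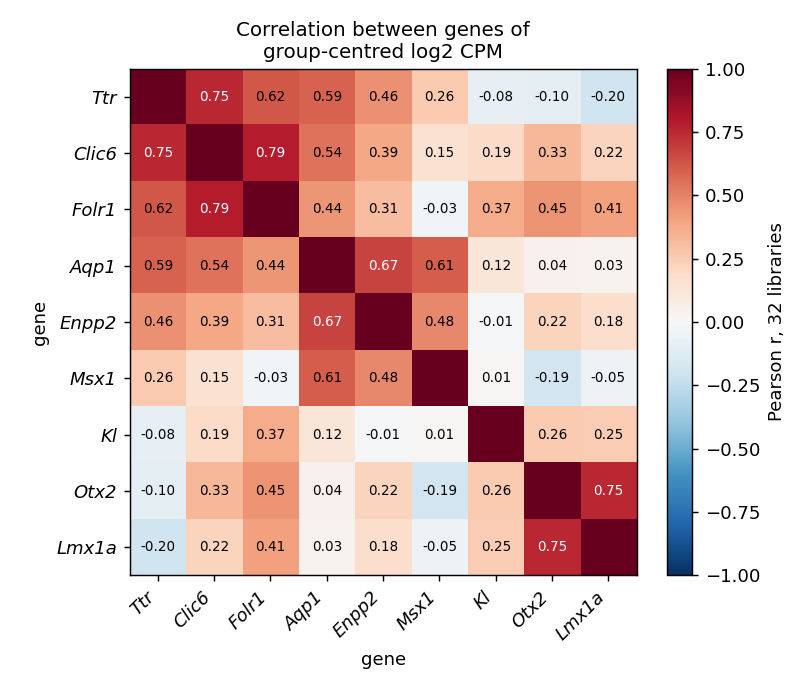
Pearson's r between each pair of the 9 genes, from log2 CPM with the group means removed, over 32 libraries. Ttr, Clic6, Folr1 and Aqp1 form a block of positive values from 0.44 to 0.79, and Otx2 with Lmx1a stands at 0.75. Folr1 also reaches 0.45 with Otx2 and 0.41 with Lmx1a.

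Between the other genes, with no test, r was 0.787 for Folr1 with Clic6 and 0.752 for Otx2 with Lmx1a. Aqp1 had r = 0.672 with Enpp2 and 0.607 with Msx1. Folr1 had r = 0.451 with Otx2 and 0.407 with Lmx1a. All of these values share the same 32 libraries and their scaling.

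Among 16055 genes outside the set that averaged 1 CPM or more over the libraries, the 3 most alike to each of the 9 were read as a description. Those of Ttr were Kcne2 (r = 0.843), Snx22 (0.686) and Lamtor3 (0.678). Kcne2, a potassium channel subunit of the plexus's apical membrane, was also among the first 3 of Clic6 (0.834) and of Folr1 (0.719), and Cfap126, a gene of motile cilia, of both as well (0.757 and 0.731). Ccna2 (0.742) completed those of Clic6 and Neu1 (0.811) those of Folr1. The list of 35 further plexus genes had 8 of 32 above r = 0.5 with Ttr, 25.0% beside 1.61% of all genes. The blood list had 5 of 10, led by Hba-a1 at 0.64, and the meninges, endothelium and roof plate lists had 0 of 10, 0 of 8 and 0 of 13.

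For the other 6 genes the most alike genes were mostly not on the plexus list. Enpp2 was most alike to Col9a2 (0.808), Slc4a5 (0.784), which is on it, and Col27a1 (0.767). Aqp1 was most alike to Col8a2 (0.925), Tinagl1 (0.849) and Aebp1 (0.847), of which Col8a2 encodes a collagen and the other 2 extracellular matrix proteins. Msx1 was most alike to Sdc1 (0.921), Wdr86 (0.9) and S1pr2 (0.887), Kl to Vwa5b1 (0.692), Cog5 (0.641) and Slc17a5 (0.635), and Lmx1a to Uncx (0.92), Foxa1 (0.89) and Lhx1os (0.89). Otx2 was most alike to Rmst (0.958), Pou4f1 (0.95) and Lhx9 (0.935), a noncoding RNA and transcription factors known from the midbrain and diencephalon. By this measure Ttr, Clic6, Folr1 and Enpp2 had a gene of the plexus list among their 3 most alike genes, and Otx2, Msx1, Lmx1a, Kl and Aqp1 had none, so the name of the set was met in part. The largest deviations of Aqp1 (-1.154, KO replicate 2) and Msx1 (1.496, WT replicate 1) were at E12.5, so that stage weighs heavily in their r. Within stages Aqp1 had r with Ttr of 0.547, 0.885, 0.906 and 0.499.

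Those 3 genes were chosen for following Otx2 over these same libraries, so their levels where Otx2 was low describe that choice. In E16.5 WT replicate 1, with Otx2 at 13.54 CPM, Pou4f1 was at 1.758 CPM against 25.53 to 28.42 CPM in the other WT libraries of the stage, Rmst at 14 against 27.73 to 44.15 CPM and Lhx9 at 39.45 against 96.86 to 107.3 CPM. In PND0 KO replicate 4, with Otx2 at 7.203 CPM, Pou4f1 was at 0.4202 CPM against 9.247 to 31.36 CPM in the other KO libraries, Rmst at 2.821 against 9.313 to 21.77 CPM and Lhx9 at 34.94 against 55.68 to 100.8 CPM. Ttr in these same libraries was 667.2 CPM, the second highest of its group, and 715.6 CPM, also the second highest. The list of 7 midbrain floor plate and dopamine neuron genes, chosen without that measure, summed to 60.61 CPM in the first library against 43.72 to 69.97 CPM in the others of its group, and to 93.46 CPM in the second against 102.2 to 135.7 CPM. How much midbrain tissue each library held was not measured, and its part in the Otx2 levels was not tested.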

How the data were processed

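Poly(A)-selected RNA of whole brain was sequenced from 32 libraries in 8 groups of 4. The deposited tables hold raw counts per gene symbol; the submitters' processing notes name HISAT2, SAMtools, featureCounts, DESeq2 and mm10, and the annotation, strand setting and versions are not given in the sources used here. Counts were used as deposited. The 9 genes and all lists were chosen with earlier results of these data known.

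Each comparison was fitted with edgeR 4.0.16 (R 4.3.3): TMM scaling, filterByExpr (minimum count 10, minimum total 15), robust quasi-likelihood F test, Benjamini-Hochberg over all genes tested, threshold 0.05. KO was compared with WT in each stage (8 libraries), WT stages with each other (8 libraries) and the KO difference across stages in 1 fit of 32 libraries. Printed CPM use TMM factors over the 32 libraries, and CPM per kb the union of exons in GENCODE M21 (GRCm38, the sequence of mm10). A count of 3, the limit that a count of 0 allows, is 0.106 to 0.216 CPM by library, and covers counting error only.

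Alternatives were RLE scaling, no low-count filter, DESeq2 1.42.0, the replicate number as a block, all 32 libraries in 1 fit, offsets for gene length (KO comparisons) and the omission of each library. Co-variation used log2 CPM with a prior count of 2 (0.5 and RLE scaling as alternatives) and 100000 resamples within groups, in Python 3.11.15 with numpy 2.4.6, scipy 1.17.1 and pandas 2.3.3; figures used matplotlib 3.10.9. The scripts were tested on simulated data. No 2 libraries of a group were alike within sampling noise: chi-square per degree of freedom was 2.9 to 114.7 over 48 pairs. Named are the 9 genes, Dhcr7, for each of the 9 the 3 genes with the highest r, list genes called in KO (at most 3 by smallest p) and the ends of each list in the WT stages; values of single list genes outside this rule were chosen after they were seen. Of 36 further plexus genes listed, 35 were in the tables.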

Additional observations from a re-analysis of the deposited data

Results flagged for a closer look

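Among the 9 genes in 8 groups, 72 groups of 4 libraries were examined for a single library far from the other 3, and 4 had one. Chance gives about 1 in 20 such groups. Aqp1 in E12.5 WT replicate 1 was 18.04 CPM, against 9.482 to 9.701 CPM in the others. Msx1 in the same library was 109.6 CPM, against 20.38 to 34.78 CPM. Otx2 in E16.5 WT replicate 1 was 13.54 CPM, against 44.92 to 48.97 CPM. Aqp1 in PND0 KO replicate 4 was 11.28 CPM, against 18.16 to 19.19 CPM.

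For 2 genes, all 4 KO libraries lay on 1 side of the WT mean at one stage and on the other side at another. Otx2 was above it at E12.5 (mean log2 difference 0.24) and below it at E14.5 (-0.02), a gap of 0.258. Lmx1a was above it at E16.5 (0.27) and below it at PND0 (-0.65), a gap of 0.916. The difference between those stages alone was not tested. In edgeR's test of the KO difference over all 4 stages neither passed (adjusted p = 0.921 for Otx2 and 0.415 for Lmx1a).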

How the results depend on the processing

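No KO comparison of the 9 genes gained a call in any of 494 refits of a gene under another setting that gave an adjusted p (DESeq2 gave none in 10 more), and 41 of those turned the sign of a difference that was not called. Turned without leaving out a library were Folr1 at E16.5 (0.00158, log2, length offsets), Kl at PND0 (0.00518, length offsets), Otx2 at PND0 (-0.135, replicate block), and, in WT from E16.5 to PND0, Aqp1 (0.00842 with RLE, 0.00125 with DESeq2, 0.00254 with the replicate block, 0.0491 with all 32 libraries). With each library left out in turn, log2 differences of KO to WT at E12.5 ran from -0.15 to 0.329 for Ttr, -0.184 to 0.158 for Kl, -0.569 to 0.0833 for Aqp1 and -1.03 to 0.169 for Msx1. At E14.5 they ran from -0.00339 to 0.182 for Clic6, -0.0319 to 0.000771 for Otx2, -0.0531 to 0.0482 for Enpp2 and -0.0449 to 0.0313 for Lmx1a. At E16.5 they ran from -0.0419 to 0.282 for Ttr, -0.182 to 0.199 for Folr1, -0.158 to 0.119 for Aqp1, -0.249 to 0.0631 for Clic6 and -0.0359 to 0.118 for Msx1. At PND0 they ran from -0.452 to 0.399 for Otx2 and -0.0142 to 0.321 for Msx1. In WT they ran from -0.253 to 0.0319 for Kl (E14.5 to E16.5) and -0.15 to 0.12 for Aqp1 (E16.5 to PND0), and r of Kl with Ttr from -0.221 to 0.0597. The count of genes called from E14.5 to E16.5 in WT was 4 and ran from 2 to 4 with a library left out, 2 being reached without E14.5 WT replicate 2 or 3 or E16.5 WT replicate 4; the cause was not tested. Of 468 refits of the WT stage differences, 25 lost a call and 16 gained one.

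Counts called over all genes moved with the setting: at E12.5 from 3 to 30 with DESeq2, 52 with all 32 libraries and 6 with the block; at E14.5 from 94 to 4 with all 32 libraries and 146 without the filter; at E16.5 from 8 to 233 without the filter, 150 with DESeq2, 3 with all 32 libraries and 5 with the block; at PND0 from 250 to 1091, 921, 1205 and, with length offsets, 54. For the change over stages the count moved from 5 to 11 without the filter, 346 with DESeq2 and 1 with the block. With a library left out these counts ran from 1 to 5, 52 to 155, 3 to 14, 35 to 263 and 0 to 797. The replicate numbers are shared between groups, and the labels do not say what they stand for. Deviations of same-numbered WT and KO libraries correlated at -0.278 to 0.305, and in no stage were all 4 pairs above 0.1. Differently numbered pairs were not compared, so these values cannot tell whether some pairs share a litter or a preparation. The replicate block left 0 of the 9 genes called in KO and 6, 3, 4 and 8 in the WT comparisons, where 6, 4, 4 and 8 were called without it. Depth limits Kl most, with 7 to 84 counts per library.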
